A study of Mus musculus with 4 samples.

Results

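The 10 genes described here encode Notch receptors, their ligands and a pair of proteins that act inside the cell on the Notch signal. They were chosen by name from the 29224 genes of the deposited tables: the receptors Notch1, Notch2 and Notch3, the ligands Dll1, Dll3, Jag1 and Jag2, the atypical ligand Dner, the DNA-binding protein Rbpj and the adaptor Numb. All 10 were found once in the tables and all 10 passed the filter on low counts, so none is missing from the comparisons. RNA was sequenced from cells of the mouse cerebral cortex at P5, collected with magnetic beads against GLAST (ACSA-1), a glutamate transporter on the surface of astrocytes, in 2 control libraries (Ezh2 f/f) and 2 knockout libraries (Ezh2 cKO). Mice of both groups carried Ezh2 alleles flanked by loxP sites, and the Ezh2 cKO mice also carried Aldh1l1-icre, in which Cre recombinase is expressed from Aldh1l1, a gene of astrocytes. The sources used here do not state whether control mice carried Cre, or whether 1 library holds the cells of 1 animal or of several, so p-values measure the spread between these libraries, which may be technical.

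Notch signalling passes between touching cells. A Delta or Jagged ligand on one cell pulls on a Notch receptor on its neighbour, proteases then release the intracellular part of the receptor, and this part enters the nucleus, binds RBPJ and a Mastermind protein and switches on genes such as Hes1 and Hes5. In the developing cortex this signal is known for keeping some cells as progenitors while their neighbours become neurons, and later for favouring the astrocyte fate, whereas NUMB limits the signal by removing receptors from the membrane. EZH2 is the enzyme of Polycomb repressive complex 2 that methylates histone H3 at lysine 27, and this complex is mostly found at promoters rich in CG dinucleotides.

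The promoters of 3 genes are shown because their start sites are placed at the same base by RefSeq and by GENCODE M21, and because they belong to the receptor gene with the largest fall, to the gene with the largest rise of the 10, and to a classical target gene of the pathway. Each is the 250 bases before the start site on the gene's strand, 5′ to 3′, from RefSeq on GRCm38.p6. The Notch2 window is at chr3:98013288-98013537 (+ strand), the Numb window at chr12:83921935-83922184 (− strand) and the Hes5 window at chr4:154960673-154960922 (+ strand). In the Notch2 and Numb sequences the capitals mark CG dinucleotides.
Notch2: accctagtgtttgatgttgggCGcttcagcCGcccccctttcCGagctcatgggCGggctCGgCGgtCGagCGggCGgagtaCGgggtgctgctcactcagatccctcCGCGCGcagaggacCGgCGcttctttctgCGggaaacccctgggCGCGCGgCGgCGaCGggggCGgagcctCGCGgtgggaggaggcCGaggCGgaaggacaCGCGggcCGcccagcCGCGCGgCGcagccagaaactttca
Numb: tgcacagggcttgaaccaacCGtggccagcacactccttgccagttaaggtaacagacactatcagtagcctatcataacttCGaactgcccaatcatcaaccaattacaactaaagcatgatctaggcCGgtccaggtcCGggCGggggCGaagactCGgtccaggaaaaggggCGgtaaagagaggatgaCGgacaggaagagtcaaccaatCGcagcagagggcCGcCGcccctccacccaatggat
In the Hes5 sequence the capitals mark the letters GTGGGAA, the consensus bound by RBPJ, or their reverse complement TTCCCAC.
Hes5: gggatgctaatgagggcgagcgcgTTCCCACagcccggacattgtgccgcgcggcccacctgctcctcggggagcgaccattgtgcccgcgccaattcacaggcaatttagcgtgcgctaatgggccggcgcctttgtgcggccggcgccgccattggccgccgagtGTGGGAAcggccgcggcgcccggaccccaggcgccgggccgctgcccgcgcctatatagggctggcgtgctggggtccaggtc

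The Notch2 window held 34 CG dinucleotides and the Numb window 12, against a median of 6 over 32851 promoter windows of the same length, and 3.53% and 33.5% of those windows held at least as many. All 10 genes had an entry, with 14 windows between them, in which CG dinucleotides numbered from 3, in 1 of the 3 Numb windows, to 54, in the Jag2 window. The Jag2 window lies within the first exon that GENCODE M21 gives this gene, whose start is 281 bases away from the RefSeq start, and it is not shown for that reason. GTGGGAA was found on either strand in 0 of the 14 windows and in 5.42% of all windows. The Hes5 window held it at 2 places, which begin 226 and 83 bases before the start site, and Hey2 held 1 match while Nrarp held none. These 3 were the target genes with an entry. Hes1, Hey1 and Heyl had no entry and were not searched. The shorter TGGGAA, which every GTGGGAA contains, was found in 21.6% of all windows, and among the 10 genes only in the windows of Rbpj itself. These matches describe letters in short windows and say nothing about what binds there.

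The control libraries held 17522152 and 16273308 counts in total and the Ezh2 cKO libraries 17330230 and 16678309, so that 3 counts, the upper limit a count of 0 allows, equal 0.170 to 0.191 CPM (counts scaled to the TMM-adjusted size of the library); this covers counting error only. Ezh2, the targeted gene, had 434 and 327 counts in the controls against 211 and 164 in Ezh2 cKO (log2 fold change −1.11 ± 0.16 (SE), edgeR adjusted p = 3.26e-05, n = 2 per group). Ezh2 transcripts were thus 0.464 times the Ezh2 f/f level, and the tables, which count whole genes, do not show how many of them lack the deleted part. A large share of all genes differed between the groups: of 16793 genes tested, 5831 were called higher and 5650 lower in Ezh2 cKO at an edgeR adjusted p under 0.05, with a median log2 fold change of 0.02.

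Markers of several cell types were measured in the same libraries, since the beads can carry more than astrocytes. Astrocyte markers were present in all libraries, but in the controls S100b had only 23 and 19 counts and Aqp4 82 and 52, and the 10 astrocyte markers together held 479 to 494 CPM in the controls and 2558 to 2806 CPM in Ezh2 cKO. The 10 immature neuron markers held 6675 to 6823 CPM in the controls and 4539 to 4569 in Ezh2 cKO, more than the astrocyte markers in every library, with 8 of 10 genes lower and 1 higher. Tubb3, a neuronal tubulin, had 60862, 57681, 39585 and 37613 counts, and Stmn2, a stathmin of growing neurons, was the gene that rose, by 0.47 on the log2 scale. Mature neuron markers were at 1211 to 1252 CPM in the controls and 5848 to 6063 in Ezh2 cKO, and rose in 9 of 10 genes. Neural progenitor markers went the other way, from 411 to 419 CPM in Ezh2 f/f to 191 to 192 in Ezh2 cKO, with 8 of 10 genes lower, among them Vim and Nes, and 1 higher. Oligodendrocyte precursor, oligodendrocyte and microglia markers were higher in 6 of 6 genes each, erythrocyte markers in 2 of 3, and cycling markers were lower in 5 of 6. The libraries described as astrocytes thus held abundant neuronal transcripts, and the groups differed in most of the marker lists. In such bulk samples fewer cells of a type and less RNA per cell cannot be told apart, and the part of these marker differences in the results given here was not tested.

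**Figure D1:**
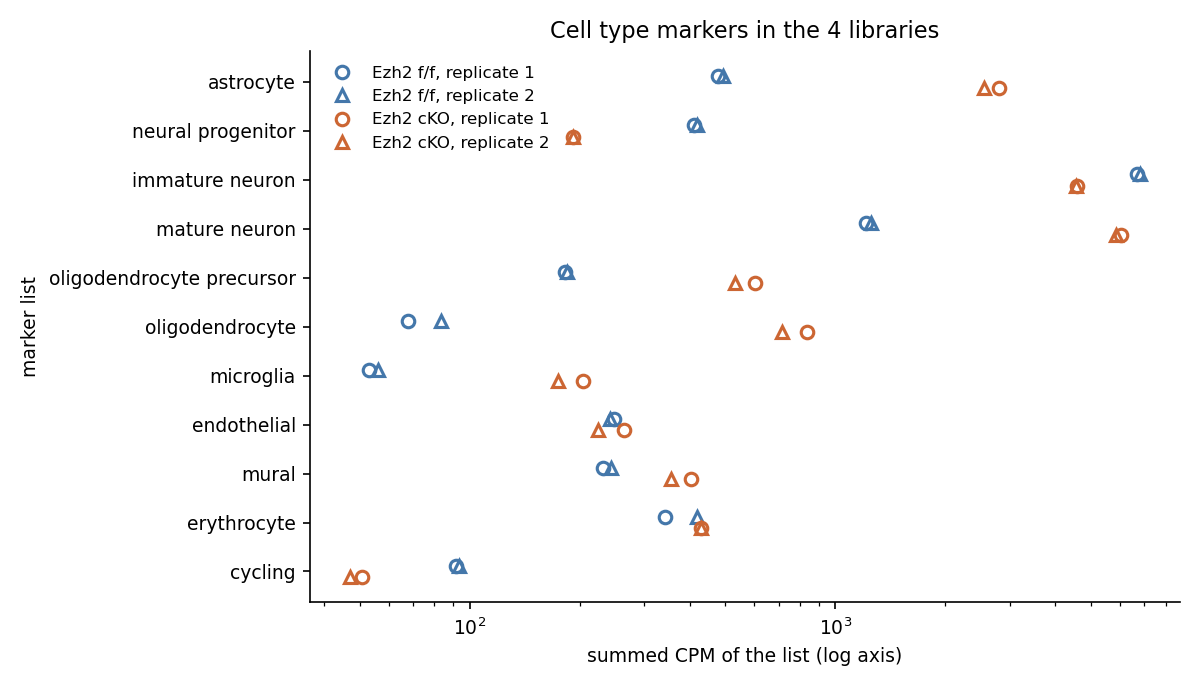
Summed CPM of each cell type marker list in the 4 libraries, on a log axis, with 1 point per library (circles, replicate 1; triangles, replicate 2). Astrocyte, mature neuron, oligodendrocyte and microglia markers sit higher in both Ezh2 cKO libraries, progenitor, immature neuron and cycling markers sit lower, and the endothelial sums of the groups overlap.

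Of the 10 genes, 7 were called lower and 2 higher in Ezh2 cKO, beside 33.6% of all tested genes called lower and 34.7% called higher (68.4% in either direction). The libraries of the groups did not overlap in CPM for 9 of the 10, as for 84.3% of all tested genes. The median log2 fold change of the 10 was −0.64 with a range from −1.64 for Jag2 to 1.05 for Numb. By role among these 10, 2 of 3 receptors, 4 of 4 Delta and Jagged ligands and Rbpj were called lower. Dner and Numb were called higher, and the receptor Notch3 was not called. Notch4 and Dll4 are outside the 10 and are given with the other pathway genes.

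**Figure D2:**
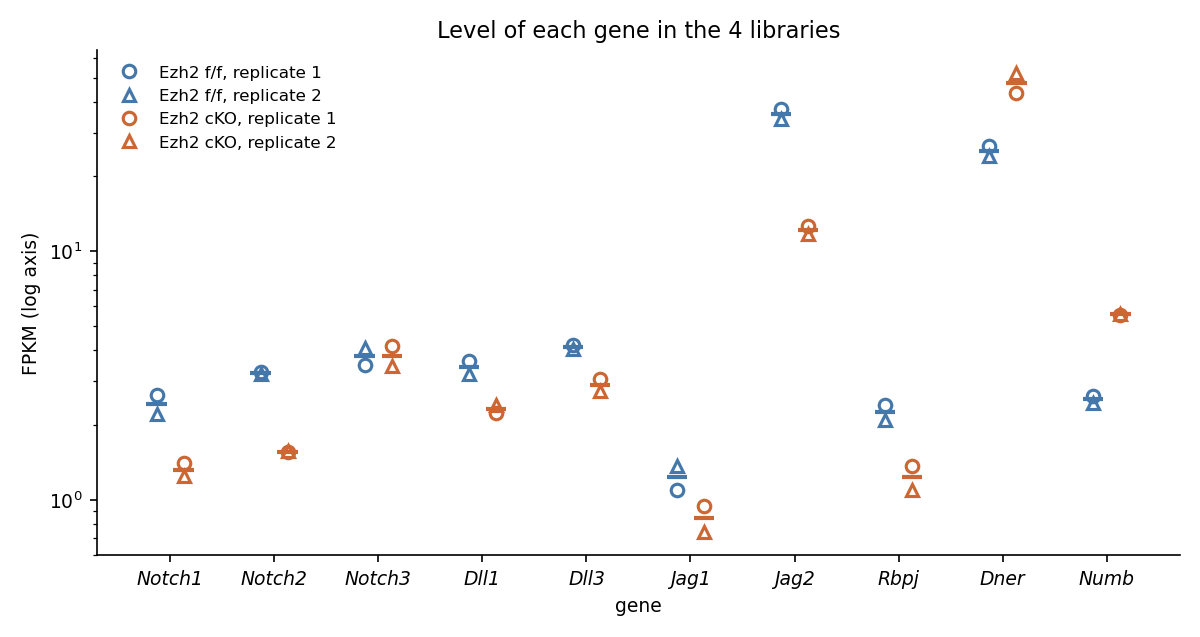
FPKM of each of the 10 genes on a log axis, with 1 point per library and a bar at the group mean (n = 2 per group). Both Ezh2 cKO libraries lie below both Ezh2 f/f libraries for Notch1, Notch2, Dll1, Dll3, Jag1, Jag2 and Rbpj and above them for Dner and Numb, while the groups overlap for Notch3.

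Notch1, the receptor best known from neural progenitors, had 660 and 510 counts in the controls against 345 and 295 in Ezh2 cKO, with a mean of 2.42 ± 0.31 (SD, n = 2) against 1.32 ± 0.11 FPKM, which scales counts to gene length and library size. Both Ezh2 cKO libraries lay below both controls, and Notch1 fell by 0.96 on the log2 scale (SE 0.13, 95% interval −1.24 to −0.68, edgeR adjusted p = 1.71e-05). Notch2, which the cortex uses beside Notch1, had 614 and 562 counts in the controls against 291 and 281 in Ezh2 cKO. Its libraries were close within each group, and it was 2.19-fold lower in Ezh2 cKO (log2 fold change −1.13 ± 0.12 (SE), 95% interval −1.38 to −0.88, edgeR adjusted p = 1.19e-06). Among the 5650 genes called lower, 33.7% had a larger fall than Notch2 and 44.4% a larger fall than Notch1.

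Notch3, a receptor that outside the progenitors is known from the mural cells of blood vessels, stood apart from the other two. Notch3 had 492 and 535 counts in the controls against 582 and 464 in Ezh2 cKO. In counts the Ezh2 cKO libraries lay on either side of both controls. In CPM Ezh2 cKO replicate 1, at 33.01, lay between the controls at 28.81 and 34.05, and Ezh2 cKO replicate 2, at 26.78, lay below both. The log2 fold change was −0.07 (95% interval −0.35 to 0.21, edgeR adjusted p = 0.646), so that a fall as large as that of Notch1 or Notch2 lies outside its interval, and its sign changed with the scaling (0.01 with total library size alone) and when replicate 2 of either group was left out (0.04 and 0.08). Mural markers, as a list of 7, held 232 to 243 CPM in the controls and 356 to 404 in Ezh2 cKO. Of the 7, 4 were higher, 1 was lower and 2 were not called. Rgs5 rose by 1.47 and Vtn by 0.54 on the log2 scale, while Pdgfrb fell by 0.55 (edgeR adjusted p = 0.000222). Cspg4, another of the 4 higher genes, is also in the oligodendrocyte precursor list. The part of these markers in the Notch3 level was not tested.

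Notch4 was at 1.487 and 1.326 FPKM in the controls and at 1.575 and 1.406 FPKM in Ezh2 cKO, and is left out of the sum that follows. Notch1, Notch2 and Notch3 together summed to 9.37 and 9.47 FPKM in the controls and to 7.11 and 6.25 FPKM in Ezh2 cKO. This was 1.41 times more in the controls. Notch3 made up 37.1% and 42.9% of this sum in the controls and 58.4% and 55.1% in Ezh2 cKO, and Notch2 fell from 34.7% and 33.8% to 21.9% and 25.0%. Notch1 accounted for 28.3% and 23.3% in the controls and for 19.7% and 19.9% in Ezh2 cKO. Notch3 held less than the other two together in both controls and more in both Ezh2 cKO libraries, with no overlap of the groups for any of the 3 shares. With 2 libraries against 2 the smallest p an exact two-sided permutation test can give for such a share is 0.333, so these shares are given as values.

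Jag2 had the highest FPKM of the 10 genes in the controls and the largest change. It encodes a Jagged ligand, is listed at chromosome 12, 112871439 to 112893396 (− strand), and had 4583 and 3860 counts in the controls against 1522 and 1357 in Ezh2 cKO. In FPKM these were 37.6 and 34.1 against 12.6 and 11.7, with the groups far apart compared with the spread inside each. Jag2 was 3.12-fold lower in Ezh2 cKO (log2 fold change −1.64 ± 0.10 (SE), 95% interval −1.85 to −1.44, edgeR adjusted p = 4.23e-09). Of the genes called lower, 15.4% had a larger fall and 159 of the 5650 a smaller p. By mean FPKM, Jag2 ranked 1641 of all 29224 genes in the controls and 4225 in Ezh2 cKO.

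Dll1, Dll3 and Jag1 were at lower FPKM than Jag2 in every library and had smaller log2 fold changes. Jag1, the second Jagged ligand, had 112 and 130 counts in the controls against 95 and 72 in Ezh2 cKO, the fewest of the 10 genes. Its log2 fold change was −0.63 (SE 0.22, 95% interval −1.10 to −0.16, edgeR adjusted p = 0.0197). The lowest control library, at 112 counts, was close to the highest Ezh2 cKO library, at 95, and the call was lost in 6 of 13 alternative settings: without Ezh2 f/f replicate 2 the log2 fold change was −0.47 (adjusted p = 0.086) and without Ezh2 cKO replicate 2 it was −0.45 (adjusted p = 0.162), both by edgeR, and DESeq2 gave an adjusted p of 0.0667. In all 13 settings its value stayed below 0.

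Dll1, a Delta ligand made by cells that are leaving the progenitor state, had 267 and 220 counts in the controls against 163 and 169 in Ezh2 cKO. Both Ezh2 cKO libraries lay below the controls (log2 fold change −0.64 ± 0.16 (SE), edgeR adjusted p = 0.00239). Dll3, a divergent Delta protein that acts inside the cell and does not activate Notch on a neighbour, had 210 and 187 counts against 151 and 130. It fell by 0.59 on the log2 scale (SE 0.17, edgeR adjusted p = 0.00622), and without Ezh2 cKO replicate 2 the value was −0.49 with an adjusted p of 0.0613. Both genes are known from neurogenic progenitors, whose markers were lower in the same libraries: Neurog2, a factor that drives neurogenesis, had 87, 64, 16 and 22 counts. Their part in the Dll1 and Dll3 results was not tested.

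Summed over Dll1, Dll3, Jag1 and Jag2, ligand transcripts were at 46.5 and 42.7 FPKM in the controls and at 18.8 and 17.6 FPKM in Ezh2 cKO, 2.45 times more in the controls. Dll4 was at 8.089 and 8.104 FPKM in the controls and at 2.322 and 1.697 FPKM in Ezh2 cKO, and is left out of this sum. In the controls Dll4 was above Dll1, Dll3 and Jag1, and every share given here would be smaller with Dll4 counted. Jag2 alone was 80.8% and 79.8% of the sum without Dll4 in the controls and 66.9% and 66.5% in Ezh2 cKO. The other 3 ligands in this sum each had a larger share in both Ezh2 cKO libraries. Dll3 went from 9.05% and 9.45% to 16.2% and 15.6%. Dll1 went from 7.77% and 7.51% to 11.8% and 13.7%, and Jag1 from 2.36% and 3.21% to 4.99% and 4.22%. These shares follow from Jag2 having the largest fall of the 4.

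**Figure D3:**
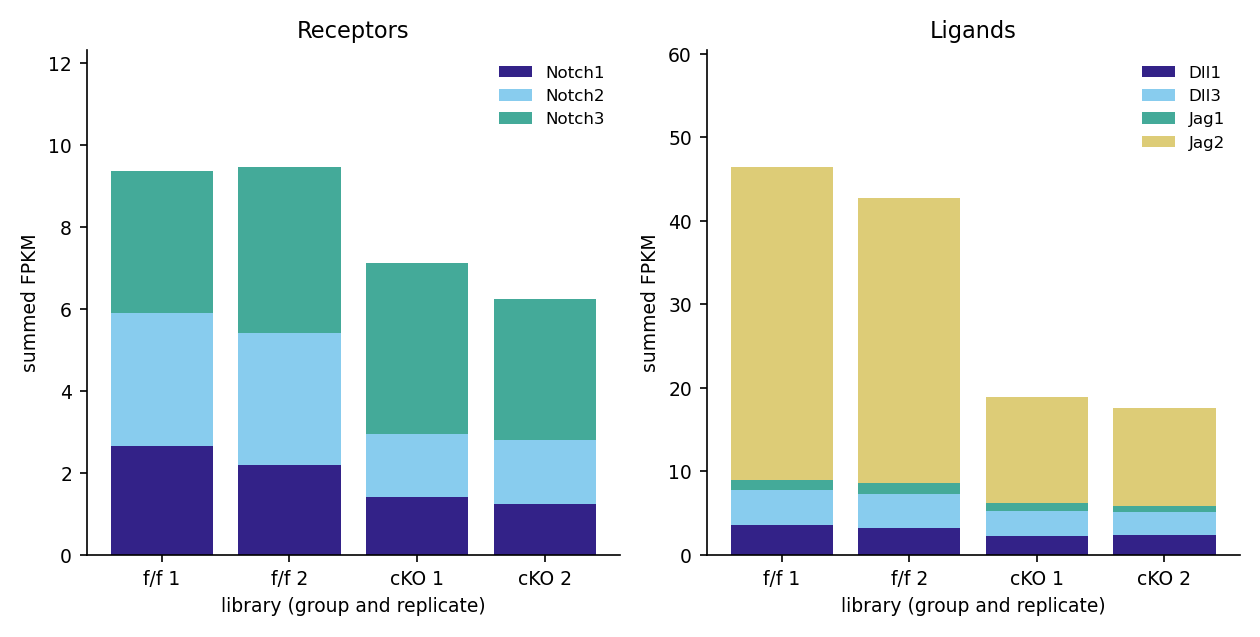
FPKM of the 3 receptors Notch1, Notch2 and Notch3 (left) and of the 4 ligands Dll1, Dll3, Jag1 and Jag2 (right), stacked per library. The 2 panels are on different axes that both start at 0, and Notch4 and Dll4 are left out. The receptor sum is 9.37 and 9.47 FPKM in the controls and 7.11 and 6.25 in Ezh2 cKO, in which the Notch3 segment overlaps between groups, and the ligand sum is mostly Jag2 in all 4 libraries.

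Dner, a transmembrane protein of neurons that carries Delta-like repeats and has been described as a ligand of Notch on glia, moved against the other ligands. It had 2231 and 1880 counts in the controls against 3589 and 4159 in Ezh2 cKO, or 26.6, 24.2, 43.3 and 52.1 FPKM. Both Ezh2 cKO libraries were above both controls, and Dner was 1.77-fold higher (log2 fold change 0.83 ± 0.10 (SE), 95% interval 0.61 to 1.04, edgeR adjusted p = 5.69e-06). This was a smaller rise than that of 64.2% of the 5831 genes called higher. Mature neuron markers rose in 9 of 10 genes in the same libraries, by 0.58 (Rbfox3) to 3.44 (Slc17a7, a vesicular glutamate transporter) on the log2 scale, with Gad1 at 0.14 not called. Their part in the Dner result was not tested.

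Rbpj, the only DNA-binding protein of the canonical pathway, had 536 and 434 counts in the controls against 302 and 232 in Ezh2 cKO. It fell by 0.95 on the log2 scale (SE 0.15, 95% interval −1.26 to −0.64, edgeR adjusted p = 4.96e-05), a change of about the same size as that of Notch1. A processed copy of the gene, Rbpj-ps3, was listed with 13, 14, 6 and 36 counts; how the counting treated reads shared between the copies is not given in the sources used here, so the Rbpj values are uncertain to that extent. Numb had 180 and 156 counts in the controls against 377 and 366 in Ezh2 cKO, with 2.62, 2.45, 5.55 and 5.60 FPKM. Its libraries were close within each group, and Numb was 2.08-fold higher in Ezh2 cKO (log2 fold change 1.05 ± 0.14 (SE), 95% interval 0.75 to 1.36, edgeR adjusted p = 1.59e-05). The signal-limiting adaptor and the nuclear effector of the pathway thus differed in opposite directions between the groups.

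**Figure D4:**
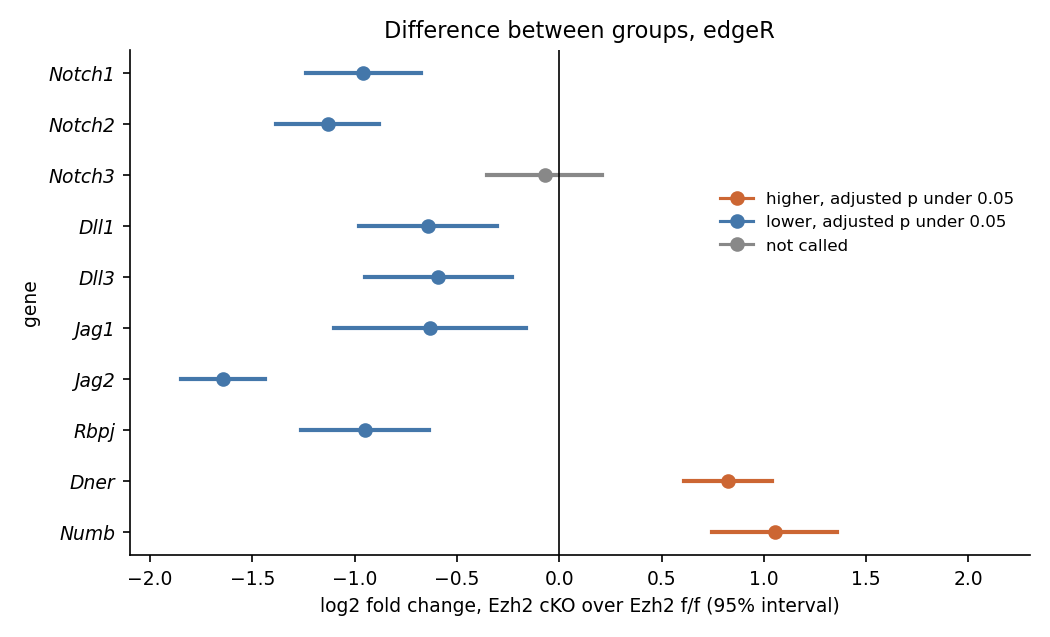
Log2 fold change of each of the 10 genes, Ezh2 cKO over Ezh2 f/f, with the 95% interval of the edgeR fit (n = 2 per group). Jag2 is lowest at −1.64, Numb is highest at 1.05, and Notch3 at −0.07, with a sign that changes under total library size, is the gene whose interval includes 0.

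Ordered by mean FPKM in Ezh2 f/f, the genes ran from Jag2 (35.8 ± 2.47 (SD, n = 2)) and Dner (25.4 ± 1.74) over Dll3, Notch3, Dll1, Notch2, Numb, Notch1 and Rbpj to Jag1 (1.23 ± 0.19). The libraries of neighbouring genes overlapped for Dll3 and Notch3, Notch3 and Dll1, Dll1 and Notch2, Numb and Notch1, and Notch1 and Rbpj, so the order within this middle stretch is loose. In Ezh2 cKO the order was Dner (47.7 ± 6.25), Jag2 (12.2 ± 0.66), Numb, Notch3, Dll3, Dll1, Notch2, Notch1, Rbpj and Jag1 (0.841 ± 0.14), and Notch1 and Rbpj alone overlapped as neighbours. Dner and Jag2 exchanged the first place, and Numb moved from the seventh to the third. Genes that overlap these 10 on either strand in the deposited positions (antisense RNAs at Notch1, Notch3, Rbpj and Numb, the microRNA gene Mir6941 within Jag2) had at most 15 counts in a library; how the counting used strand is not given in the sources used here.

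The remaining pathway genes were taken as 6 lists with 52 genes in all, and every one was tested. Of these, 15 were higher, 18 lower and 19 not called, with a median log2 fold change of −0.05, close to the median of all genes. Over all genes 34.7% were called higher and 33.6% lower. The medians of the single lists ranged from −1.06 for other receptors and ligands to 0.54 for target genes.

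**Figure D5:**
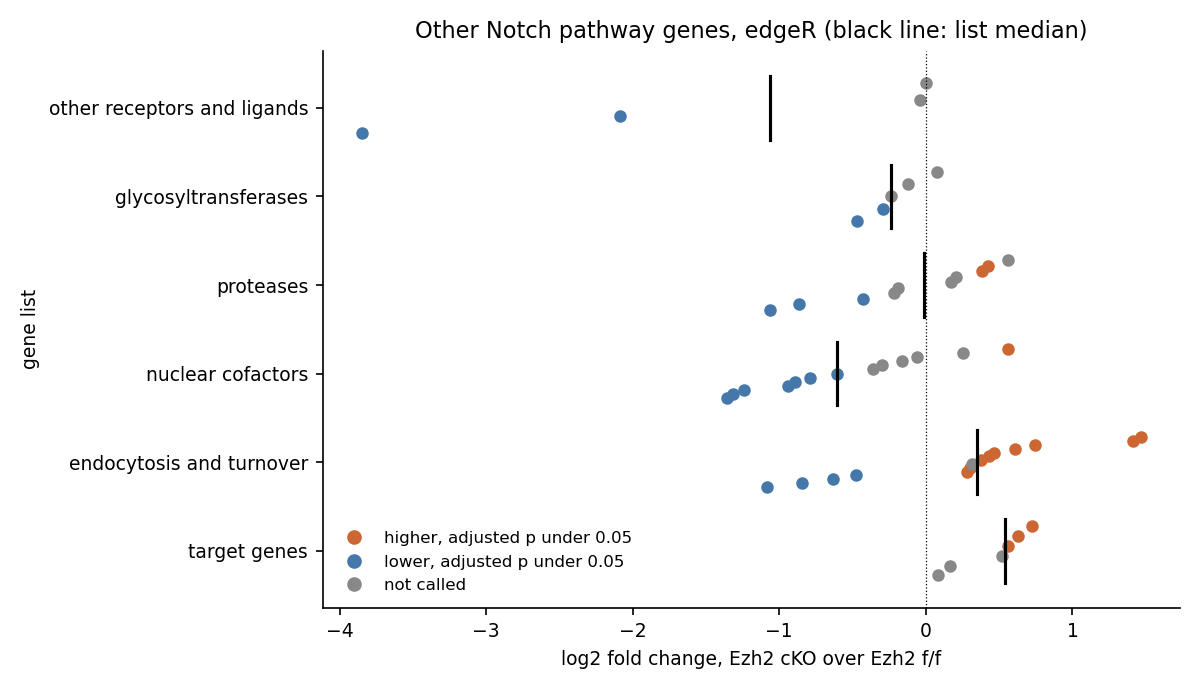
Log2 fold change (Ezh2 cKO over Ezh2 f/f, edgeR) of each gene in the 6 lists of other pathway genes, with a black line at the list median and colours for the call. Nuclear cofactors lie mostly below 0 (7 of 13 called lower), endocytosis and turnover genes mostly above 0 (9 of 14 called higher), and the 6 target genes all at or above 0.08. Over all tested genes 33.6% were called lower and 34.7% higher.

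In the list of other receptors and ligands, 2 of 4 were lower and none higher, beside 33.6% and 34.7% of all tested genes. The list median was −1.06. At an unadjusted p under 0.05 and by DESeq2 the number higher was 0 as well. Dlk1, an imprinted Delta-like protein without the domain that activates Notch, had 390 and 578 counts in the controls against 41 and 31 in Ezh2 cKO. It fell by 3.85 on the log2 scale (SE 0.25, edgeR adjusted p = 1.16e-08), more than any of the 10 genes, and 2.28% of the genes called lower fell by more. Dll4, the Delta ligand of sprouting blood vessels, had 546 and 508 counts against 155 and 109, a fall by 2.09 (SE 0.16, edgeR adjusted p = 6.13e-08). Notch4, the receptor of endothelium, had 210, 174, 220 and 189 counts with overlapping groups (log2 fold change 0.00, 95% interval −0.35 to 0.35), and Dlk2 had 1070, 1068, 1202 and 1021 counts (log2 fold change −0.04). Endothelial markers summed to 242 to 249 CPM in the controls and 225 to 264 in Ezh2 cKO, with 2 of 7 higher, 1 lower and a median of −0.08. The part of endothelial cells in the Dll4 result was not tested.

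Among the enzymes that add sugars to the receptors, 2 of 5 were lower and none higher, beside 33.6% and 34.7% of all tested genes. The list median was −0.24, and the number higher was also 0 at an unadjusted p under 0.05 and by DESeq2. Rfng fell by 0.29 (edgeR adjusted p = 0.0112) and Mfng by 0.47 (edgeR adjusted p = 0.0206). Both encode Fringe enzymes, which tune which ligand a receptor answers to. The Mfng call was lost in 8 of 13 alternative settings, including without Ezh2 f/f replicate 1 (−0.31, edgeR adjusted p = 0.161) and without either Ezh2 cKO library (−0.45 and −0.48), and the Rfng call in 2 of 13, among them without Ezh2 cKO replicate 2 (−0.23, edgeR adjusted p = 0.0939). Of the 10 proteases and γ-secretase subunits, 3 were lower and 2 higher, beside the same 33.6% and 34.7%, with a median of −0.01. Ncstn, the γ-secretase subunit that receives the substrate, had 3164 and 2965 counts in the controls against 1555 and 1576 in Ezh2 cKO and fell by 1.06 (edgeR adjusted p = 1.42e-07). Furin, which cuts the receptor on its way to the surface, fell by 0.86 and the subunit Aph1a by 0.43. Adam10, the protease that cuts the receptor after ligand binding, rose by 0.42 (edgeR adjusted p = 0.00188), and the subunit Psenen rose by 0.38, a call lost without replicate 1 of either group (0.26 and 0.31 by edgeR).

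Of the nuclear cofactors that work with RBPJ, 7 of 13 were lower and 1 higher, beside 33.6% and 34.7% of all tested genes. The list median was −0.61. Spen, a corepressor partner of RBPJ, had 3085 and 2706 counts in the controls against 1310 and 1101 in Ezh2 cKO (log2 fold change −1.36 ± 0.10 (SE), edgeR adjusted p = 4.35e-08). Crebbp, a histone acetyltransferase, fell by 1.24, and Maml1, the Mastermind protein that completes the activating complex, by 1.32. The genes that fell encode coactivators and a corepressor alike. Hdac1, a histone deacetylase, was the one that rose (0.56, edgeR adjusted p = 0.00105).

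Of the genes for endocytosis and turnover of ligand and receptor, the group to which NUMB belongs by function, 9 of 14 were higher and 4 lower. Over all tested genes 34.7% were higher and 33.6% lower. The list median was 0.35. Neurl1a, a ubiquitin ligase that promotes ligand uptake, had 1060 and 941 counts in the controls against 2961 and 2704 in Ezh2 cKO (log2 fold change 1.41 ± 0.09 (SE), edgeR adjusted p = 1.60e-08). Fbxw7, which marks the intracellular Notch fragment for destruction, rose by 0.74, and Aak1, a kinase that phosphorylates NUMB, by 0.61. The 4 lower genes were Deltex genes, which encode ubiquitin ligases. Another Deltex gene, Dtx3l, was higher with 13, 13, 31 and 46 counts (log2 fold change 1.47, edgeR adjusted p = 0.00362). Its call was lost in 2 of 10 alternative settings, among them without Ezh2 cKO replicate 2 (1.14). Over these settings its value ran from 0.30 to 1.73. Dtx1 had 6034 and 5471 counts in the controls against 2997 and 2781 in Ezh2 cKO (log2 fold change −1.09, edgeR adjusted p = 7.54e-08). Dtx3 fell by 0.64 and Dtx2 by 0.85.

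Among the target genes, 3 of 6 were higher and none lower (0 also at an unadjusted p under 0.05 and by DESeq2). Over all tested genes 34.7% were higher and 33.6% lower. The list median was 0.54. Hes5 had 117 and 133 counts in the controls against 258 and 183 in Ezh2 cKO (log2 fold change 0.72 ± 0.20 (SE), edgeR adjusted p = 0.00485). Hes1 had 106 and 97 counts against 166 and 168 (0.63, edgeR adjusted p = 0.00648), and Heyl 202 and 160 against 318 and 251 (0.56, edgeR adjusted p = 0.00768). Hes1 and Hes5 encode repressors of proneural genes. For each of the 3 genes both Ezh2 cKO libraries lay above both controls. The calls of Hes5 and Heyl were lost without Ezh2 cKO replicate 1 (0.47 and 0.40, edgeR adjusted p = 0.108 and 0.114), and that of Heyl also by limma on log2(FPKM + 1) without a filter (adjusted p = 0.0595), while that of Hes1 was kept in all 13 settings. Hey1, Hey2 and Nrarp were not called by the edgeR fit, with log2 fold changes of 0.17, 0.08 and 0.52, and with 24 to 60 counts in a library for Nrarp, whose value ran from 0.19 to 0.88 over the alternative settings. Hes5, Hes1 and Heyl are known from astrocytes and their precursors as well as from progenitors, and astrocyte markers rose in 8 of 10 genes, Slc1a2 and Gfap by 3.94 and 3.77 and Slc1a3, which encodes the bead target GLAST, by 1.59 on the log2 scale, whereas Aldh1l1 was at 1285, 1250, 1280 and 1155 counts. The part of these markers in the target gene results was not tested.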

How the data were processed

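RNA was measured in 4 libraries, 2 Ezh2 f/f and 2 Ezh2 cKO; the paper gives the age, isolation and genotypes, and the labels name the groups. The authors deposited the count of reads per gene and library without normalization, and FPKM values. In the 14688 genes with at least 10 counts in every library, FPKM equalled those counts scaled to 1 length per gene and to the total count. The other genes were not checked for this. The submitters' processing notes list Bowtie2 2.2.3, TopHat2 2.0.12, HTSeq 0.6.0 and the build mm9, with no role or order; annotation, filters and use of strand are not given in the sources used here. Of 28799 genes with an identifier in GENCODE M21 (GRCm38), 581 had the same position there, and 0 of the 10 members did, so gene positions are printed as deposited and their build was not settled. The authors' own comparison columns (mean signal, ratio, log2 ratio and p-values) were not used, and 0 sample columns were left out.

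The filterByExpr filter of edgeR kept 16793 genes, whose counts were scaled by TMM (factors 0.967 to 1.04) and tested with the quasi-likelihood test with group as the only term (edgeR 4.0.16, limma 3.58.1, DESeq2 1.42.0, R 4.3.3; Python 3.11.15, pandas 2.3.3, numpy 2.4.6, matplotlib 3.10.9). p-values were adjusted by Benjamini-Hochberg over all genes tested, with a call at an adjusted p under 0.05. SE is the size of the log2 fold change divided by the square root of the F statistic, and intervals use the total degrees of freedom of the fit. CPM are scaled to TMM-adjusted library sizes. The spread of counts between the 2 libraries of a group exceeded counting noise (chi-square per degree of freedom 9.70 in Ezh2 f/f, 6.10 in Ezh2 cKO), so none was taken for a duplicate. The script was tested on simulated data with known changes in a small part of the genes. That test does not cover scaling or false calls where most genes differ, as they did here. Promoters are the 250 bases before RefSeq start sites on GRCm38.p6, searched on both strands.

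The members and lists were chosen with earlier results of these data known. Genes were named by rule: the 10 members, Ezh2, up to 3 called genes with the smallest p in each direction of each pathway list, and the 2 most abundant genes of a marker list. S100b, Aqp4, Slc1a3, Aldh1l1, Neurog2, Rbfox3, Gad1, Pdgfrb, Cspg4, Dtx3l, Notch4, Dlk2, Hey1, Hey2 and Nrarp were named after their values were seen. Alternatives were DESeq2, DESeq2's size factors or total library size in edgeR, no filter, a mean count of at least 50, limma on log2(FPKM + 1) for genes with FPKM of at least 1 in 2 libraries, a pseudocount of 0.1, no FPKM filter, the replicate number as a block, and each library left out in turn.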

Additional observations from a re-analysis of the deposited data

How the results depend on the processing

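Of the 10 genes, 2 were called higher in each of the 13 alternative settings and 5 to 7 lower, the 5 without Ezh2 cKO replicate 2. Notch1, Notch2, Dll1, Jag2, Rbpj, Dner, Numb and Ezh2 kept call and direction in all 13; Dll3 lost its call in 1 and Jag1 in 6. Uncalled genes changed sign: Notch3 was at 0.0121 with total library size only, at 0.0072, 0.0085 and 0.0072 by limma on log2(FPKM + 1), on log2(FPKM + 0.1) and without the filter, and at −0.2288 to 0.0757 with 1 library left out. Notch4 was at −0.0155 with DESeq2 and at −0.0157 with its size factors in edgeR, and at −0.0987 to 0.0977 with 1 library left out. Dlk2 was at 0.0442 with total library size only, at 0.0404, 0.0415 and 0.0404 in the 3 limma fits, and at −0.1469 to 0.0662 with 1 library left out. Hey2 was at −0.24 without Ezh2 f/f replicate 1 and up to 0.45 in the other settings. Hey1 was called higher in 4 of 13 settings and Nrarp in 1 of 10, and 3 settings left out Hey2, Nrarp and Dtx3l by their filters. The called pathway genes numbered 10 to 19 higher and 14 to 19 lower, the 10 without Ezh2 cKO replicate 1. Total library size moved the share of higher among called genes from 50.8% to 55.1%, less than 10 points. Shares per kilobase from TMM-scaled CPM equalled those from FPKM. With the replicate block, 2 of the 10 genes were higher and 7 lower, and over all genes 5795 were higher and 5599 lower. This paired fit changed no call among the 10. Same-numbered libraries share only a number. Across genes, the deviations of the replicate 1 libraries from their group means correlated at 0.13. With 2 libraries per group, replicate 2 gives the same value and adds nothing. With 72 to 130 counts in a library, Jag1 had the fewest of the 10 genes and the largest SE (0.22). A left-out library leaves a group of 1, which is assumed to vary like the other group.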
